A study of Mus musculus with 5 samples.

Results

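The genes described here are the long noncoding RNA genes in a table from the mouse macrophage line RAW264.7, studied with and without lipopolysaccharide (LPS). They are the 74 of 1489 listed genes that the table classes as lincRNA (56 genes, transcribed between coding genes) or antisense (18 genes, transcribed against another gene). LPS comes from the outer wall of Gram-negative bacteria, and macrophages sense it through the receptor TLR4. The 5 libraries were 1 of cells given LPS and compound 13, 2 of cells given LPS alone (the LPS model) and 2 of control cells given PBS, a buffered saline, in place of both. By the study's methods the cells got LPS at 0.1 μg/ml, compound 13 (5-chloro-6-hydroxymellein) at 10 μM, and were left for 24 h. That library's label carries a code and speaks of anti-inflammatory compounds, in the plural, without naming one. The identity of compound 13 was taken from the study's methods, which do not restate the dose for the sequenced cells. Whether replicates were separate cultures is not stated, and the p-values therefore cover the spread among 5 libraries and no more, a spread that may be technical.

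Long noncoding RNAs are transcripts without a coding role, and many of them are spliced and processed much like messenger RNAs. Some hold a nuclear body together, some are the precursors of microRNAs, and some act on transcription near their own site or elsewhere. In mouse macrophages Ptgs2os2, known as lincRNA-Cox2, and Mir155hg, the precursor of miR-155, are textbook examples of TLR-induced noncoding genes. Neat1 is the scaffold of paraspeckles, bodies in the nucleus that retain RNA and RNA-binding proteins. F630028O10Rik is the gene from which miR-223, a microRNA of myeloid cells, is made. These 4 were the members found in a list of 32 noncoding genes with a described role in macrophages or inflammation.

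By RefSeq coordinates 2 members held a microRNA, and the mature sequences are shown because they identify the product of these host genes. All are from RefSeq (GRCm38.p6), written 5′ to 3′, with the seed, bases 2 to 8, in capitals. The microRNAs of Mir155hg lay on chromosome 16 (plus strand) at 84714143 to 84714165 and 84714182 to 84714202, inside the host at 84703167 to 84715245.
mmu-miR-155-5p: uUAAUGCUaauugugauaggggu
mmu-miR-155-3p: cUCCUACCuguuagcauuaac
The microRNAs of F630028O10Rik lay on chromosome X (plus strand) at 96242884 to 96242905 and 96242842 to 96242864, inside the host at 96239926 to 96243636.
mmu-miR-223-3p: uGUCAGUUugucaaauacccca
mmu-miR-223-5p: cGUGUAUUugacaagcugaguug
The 4 seeds differ, so none of these microRNAs shares a seed with another. The table measures the host transcripts and not the mature microRNAs.

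A promoter sequence could be matched by symbol for 26 of the 74 members in the RefSeq table, and for 25 of them it lay on the member. Where a member had several, the window nearest to its deposited start was taken. In 20 of these 25 it began within 1 kb of the start in the deposited table. The window runs from 250 bases before the start to 50 bases after it. Among the 25, 3 (12%) held the interferon-stimulated response element (ISRE) on either strand, searched as GAAA, any 2 bases and GAAA, against 3.44% of all 32851 RefSeq promoters. The 3 windows with a match are shown. Their genes, Ptgs2os2, F630028O10Rik and 1700006J14Rik, were all higher with LPS, as were 79.7% of all members, and a link between match and change was not tested. Capitals mark matches to any motif searched.
Ptgs2os2, chr1:150164899-150165198, minus strand: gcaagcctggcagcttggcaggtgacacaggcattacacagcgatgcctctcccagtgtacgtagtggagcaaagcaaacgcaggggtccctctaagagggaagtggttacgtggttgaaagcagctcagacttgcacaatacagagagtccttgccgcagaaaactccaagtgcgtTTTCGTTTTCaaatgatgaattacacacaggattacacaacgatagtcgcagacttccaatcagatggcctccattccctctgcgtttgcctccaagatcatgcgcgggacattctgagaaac
F630028O10Rik, chrX:96239676-96239975, plus strand: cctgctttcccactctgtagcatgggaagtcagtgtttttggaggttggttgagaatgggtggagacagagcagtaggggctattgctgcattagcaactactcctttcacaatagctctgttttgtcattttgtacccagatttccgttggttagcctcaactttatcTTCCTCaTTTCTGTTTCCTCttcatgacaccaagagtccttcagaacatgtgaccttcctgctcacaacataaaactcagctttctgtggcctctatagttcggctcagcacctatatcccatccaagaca
1700006J14Rik, chr10:120363884-120364183, plus strand: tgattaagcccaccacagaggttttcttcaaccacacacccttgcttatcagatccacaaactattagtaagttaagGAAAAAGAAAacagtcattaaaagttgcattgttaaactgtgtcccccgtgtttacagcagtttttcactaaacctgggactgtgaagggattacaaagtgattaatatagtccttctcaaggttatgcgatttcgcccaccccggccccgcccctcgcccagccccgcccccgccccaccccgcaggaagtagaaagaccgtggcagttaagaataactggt
The match began 73 bases before the start in Ptgs2os2, 74 bases before it in F630028O10Rik and 173 bases before it in 1700006J14Rik. In F630028O10Rik the capitals also cover 2 matches to GAGGAA, the core of the motif of PU.1, a factor of the myeloid lineage, 1 of which overlaps the ISRE match. That core was found in 10 of the 25 member promoters (40%) and in 28.3% of all promoters. The AP-1 motif TGANTCA was found in 3 (12%) against 7.81% of all promoters. The NF-kB consensus and the CRE motif TGACGTCA were found in 0 of the 25, against 8.46% and 1.79% of all promoters. Over all 29 windows on these members, the NF-kB consensus was found in 1, an alternative window of Gm28809, the PU.1 core in 11 and the CRE motif in 0. A match is a string of letters and not a tested site, and these windows were read in whichever direction the gene changed.

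The values, deposited on a log2 scale, were turned back to FPKM (fragments scaled to exon length and depth). Reads were recovered from them at depths of 17143620 reads in the library with compound 13, 16591620 and 16171400 in the LPS model, and 16565880 and 17103160 in the control. The listed genes held 16.8% of the reads with compound 13, 17.0% and 17.1% in the LPS model, and 8.0% and 8.21% in the control. The study's methods define differentially expressed genes by a threshold on p, and whether that is how the 1489 genes were selected is not stated in these sources. Nearly all of them differ between LPS model and control, and counts of higher and lower members describe this selection. Of 10 macrophage markers, 3 are listed (Itgam, Cd14 and Fcgr1), with a summed 1441 FPKM with compound 13, 1409 and 1381 FPKM in the LPS model, and 711 and 758 FPKM in the control. Of 10 epithelial markers, 4 are listed (Elf3, Krt8, Krt18 and Krt19), and they had 0 reads with compound 13, 602 and 368 reads in the LPS model, and 0 and 0 reads in the control. Fibroblast markers (4 of 10 listed) had 164 reads with compound 13, 429 and 374 reads in the LPS model, and 21 and 19 reads in the control, endothelial markers (3 of 7 listed) had 23, then 115 and 91, and 6 and 2 reads in the same order, and the neutrophil markers Csf3r and S100a8 had 3250, then 3849 and 3756, and 71 and 108 reads. In bulk RNA fewer cells of a type and less RNA per cell cannot be told apart, and the part of other cells in the values of members was not tested. A pattern of 10 or more reads in both LPS model libraries with no more than 3 reads elsewhere was seen in 77 listed genes, of which 0 were members.

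Most members were expressed at a low level. Their median was 1.34 FPKM with compound 13, 1.86 FPKM in the LPS model and 0.645 FPKM in the control, beside 2.40, 2.87 and 1.56 FPKM for the 1323 listed protein-coding genes in the same groups. Below 1 FPKM lay 27 members with compound 13, 28 members in the LPS model and 46 members in the control. Member transcripts were also shorter, with a median exon length of 1801 bases and 3 exon blocks, beside 4043.5 bases and 9 blocks for the coding genes. Of the 74 members, 11 had a single exon block.

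A few genes took most of the member reads. Neat1 alone held 26.3% of them with compound 13, 19.5% and 20.9% in the LPS model, and 47.5% and 44.3% in the control. The 4 members with the most reads in a library held 59.8% with compound 13, 55.3% and 53.4% in the LPS model, and 67.5% in each control library. By level per length the order was different, and Gm43351, a transcript of 326 exon bases with no role given here, was the highest of all. Gm43351 stood at 196 FPKM with compound 13, at 219 and 214 FPKM in the LPS model, and at 95.9 and 90.4 FPKM in the control. Next came Gm26917, with 43.6 FPKM with compound 13, 44.1 and 38.4 FPKM in the LPS model, and 17.0 and 23.8 FPKM in the control. The table's own sequence match for Gm26917 is the external transcribed spacer of ribosomal RNA, a repeated sequence, so its reads may come from copies elsewhere. The antisense gene 4930430E12Rik was the third, with 31.1 FPKM with compound 13, 31.1 and 29.8 FPKM in the LPS model, and 12.9 and 13.4 FPKM in the control.

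These 3 and Gm28187 were the most abundant members that were higher with LPS beside Ptgs2os2. Gm43351 was higher by 1.21 ± 0.04 on the log2 scale (SE, adjusted p = 6.57e-06 from limma), 4930430E12Rik by 1.15 ± 0.05 (adjusted p = 1.15e-05 from limma) and Gm28187 by 1.12 ± 0.08 (adjusted p = 8.12e-05 from limma). Gm26917 was the least even of them, at 0.997 ± 0.16 (adjusted p = 0.00199 from limma). A change of this size is close to that of the median listed gene. Rescaled so that the median gene does not change, Gm43351 stood at 0.01 and Gm28187 at 0.03, while 4930430E12Rik turned to −0.01 and Gm26917 to −0.18, with 0 of the 4 called.

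**Figure D1:**
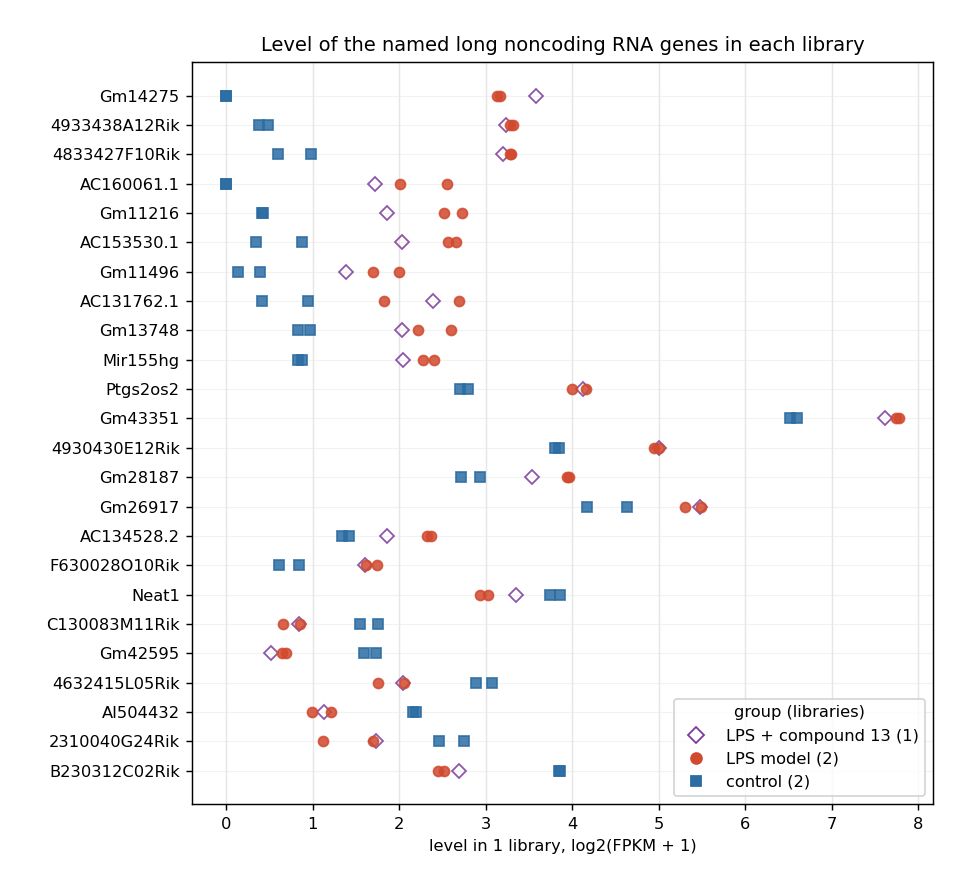
Level of 24 named members on the log2(FPKM + 1) scale (horizontal axis) in each of the 5 libraries, with open diamonds for LPS with compound 13, circles for the LPS model and squares for the control. Genes are ordered by their change with LPS. The 2 circles and the 2 squares of a gene do not overlap in any line, with Gm14275 at 0 in both control libraries. Many of these genes were named for their change with LPS, and such overlap was seen in 0 of all 74 members. Of all listed genes, 76.7% lay above the control without overlap and 21.1% below. The separation is therefore not read as a trait of the genes drawn. Of the genes with squares to the right, Neat1 is highest by mean FPKM over the 5 libraries and B230312C02Rik by mean FPKM in the control.

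With LPS, 41 of the 51 members that passed the filter were higher and 9 were lower than in the control. The test was limma on log2(FPKM + 1) over the 1053 genes with an FPKM of 1 or more in 2 libraries, or in the single one with compound 13, and a gene was called at an adjusted p under 0.05. More libraries got LPS than not, so genes high only with LPS pass this filter more readily than genes high only in the control. The counts of higher and lower genes share that lean. Over all genes tested, 72.7% were higher and 23.4% lower, 96.1% in all, a share near that of the members. Their median log2 fold change was 0.95, beside 0.96 for all genes tested. The 1 tested member without a call was Gm29340, at 0.21 ± 0.10 on the log2 scale (SE, adjusted p = 0.0847 from limma). Rescaling by the median of ratios assumes that as many listed genes rise as fall. It moves the median of all genes by 0.96 on the log2 scale, and after it 17 members were called higher and 11 lower. The share of all genes called after rescaling is not given here, so these counts are not read as a trait of the members.

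The 23 members under the filter were tested on the recovered reads with limma-voom, which took 1487 genes. In that test 58 of the 74 members were higher and 15 lower, beside 75.7% and 20.6% (96.2% in all) of the genes tested, and the 50 members called by limma were called in the same direction. In 59 members both LPS model libraries lay above both control libraries, in 15 both lay below, and in 0 did they overlap, beside 76.7% above and 21.1% below in the whole table. Among the 18 antisense genes 16 were above and 2 below, and among the 56 lincRNA genes 43 were above and 13 below. The difference in log2(FPKM + 1) between replicates had a median of 0.12 in the LPS model, and of 0.11 in the control. It was largest for AC131762.1 in the LPS model, at 0.87, and for Gm44659 in the control, at 0.55.

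**Figure D2:**
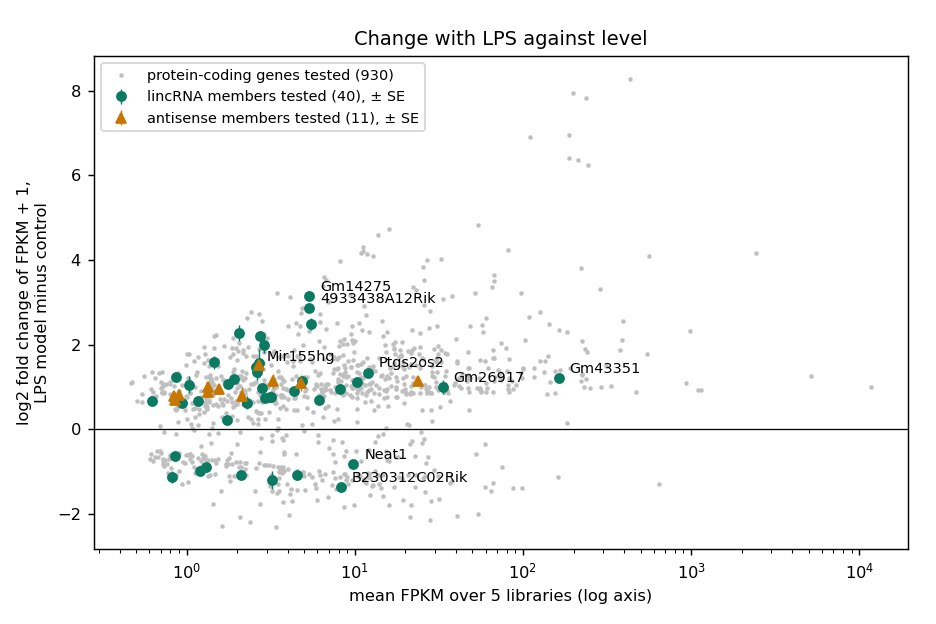
Log2 fold change of FPKM + 1 between LPS model and control (vertical axis) against mean FPKM over the 5 libraries (log axis) for the genes tested. Circles are 40 lincRNA and triangles 11 antisense members with their standard error, and small grey points are 930 protein-coding genes. Members lie between −1.37 (B230312C02Rik) and 3.15 (Gm14275), while some coding genes reach higher values.

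The members with a described role moved in both directions. Ptgs2os2 had 16.5 FPKM with compound 13, 16.9 and 15.0 FPKM in the LPS model, and 5.95 and 5.49 FPKM in the control. It was higher with LPS by 1.33 ± 0.08 on the log2 scale (SE, adjusted p = 3.26e-05 from limma), and both LPS model libraries lay above both controls. After rescaling by the median of ratios this was 0.24 (adjusted p = 0.0435 from limma). In reads corrected for depth, the LPS model held 2.79 times the control, with a 95% counting interval of 2.46 to 3.17. Mir155hg had 3.13 FPKM with compound 13, 3.83 and 4.27 FPKM in the LPS model, and 0.843 and 0.775 FPKM in the control. Its log2 fold change with LPS was 1.48 ± 0.08 (adjusted p = 2.76e-05 from limma), and in reads it was 5.01 times the control (interval 3.53 to 7.26), with a rescaled log2 fold change of 0.73. F630028O10Rik, the host of miR-223, had 2.05 FPKM with compound 13, 2.36 and 2.06 FPKM in the LPS model, and 0.531 and 0.799 FPKM in the control. It was higher with LPS by 0.95 ± 0.11 (adjusted p = 0.000532 from limma), though after rescaling by the median of ratios it was no longer called (0.30, adjusted p = 0.0936).

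Neat1 went the other way. It had 9.23 FPKM with compound 13, 6.64 and 7.16 FPKM in the LPS model, and 13.5 and 12.4 FPKM in the control. With LPS it fell by 0.82 on the log2 scale (SE 0.07, adjusted p = 0.000125 from limma), and its reads were 0.531 times those of the control (interval 0.513 to 0.551). Neat1 kept this sign under every alternative run, between −1.92 (rescaled by the median of ratios) and −0.77. The gene lies on chromosome 19 at 5824708 to 5845478 (minus strand), in a single exon block of 20771 bases, and the table gives 1 value for its short and long isoforms together.

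The largest rises were in genes with little or no signal in control cells. Gm14275 (chromosome 2, 172288133 to 172290520, plus strand) had 81 reads with compound 13, 57 and 54 reads in the LPS model, and 0 and 0 reads in the control. Against a floor of 3 reads for the control group the rise with LPS was 38.0-fold. The exact interval, which also counts the error of the LPS reads, begins at 30.4. The log2 fold change of FPKM + 1 for Gm14275 was 3.15 ± 0.07 (adjusted p = 2.16e-06 from limma). 4933438A12Rik (chromosome 15, 91597583 to 91604676, plus strand) had 146 reads with compound 13, 151 and 143 reads in the LPS model, and 5 and 7 reads in the control. That is 25.2 times the control in reads (interval 14.2 to 49.3), and 2.87 ± 0.08 on the log2(FPKM + 1) scale (adjusted p = 2.97e-06 from limma). AC160061.1 also had 0 reads in both control libraries, with 21 reads with compound 13 and 43 and 26 reads in the LPS model. Against the same floor AC160061.1 was 23.6-fold higher with LPS (exact interval from 18.7). None of these 3 genes had a listed coding gene within 100 kb.

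Other large rises were seen in 4833427F10Rik, Gm11216, AC153530.1, Gm11496, AC131762.1 and Gm13748, whose log2 fold changes ran from 2.50 for 4833427F10Rik to 1.51 for Gm13748. 4833427F10Rik had 208 reads with compound 13, 216 and 208 reads in the LPS model, and 24 and 13 reads in the control. AC131762.1 was the least even, with 38 reads with compound 13, 22 and 46 reads in the LPS model, and 8 and 3 reads in the control. Its log2 fold change was 1.57 ± 0.33 (adjusted p = 0.00541 from limma), and it was not called after rescaling (0.89, adjusted p = 0.0659).

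Of the 7 members with 0 reads in both control libraries, 5 were under the filter, namely Gm807, AC101882.1, Gm6634, Gm42649 and AC131660.1. Their lower bounds for the rise with LPS ran from 5.82-fold for AC101882.1 (exact interval from 4.24) to 11.6-fold for AC131660.1 (from 8.97). Gm42649 had 9 reads with compound 13 and 12 and 15 reads in the LPS model, and was 9.25-fold higher with LPS against that floor. These genes were all higher in limma-voom, and their levels in the LPS model stayed below 1 FPKM.

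Among the 9 tested members that were lower with LPS, B230312C02Rik changed most. It had 5.45 FPKM with compound 13, 4.46 and 4.72 FPKM in the LPS model, and 13.4 and 13.6 FPKM in the control. The fall by 1.37 on the log2 scale (SE 0.06, adjusted p = 1.16e-05 from limma) exceeded the spread in both groups. 4632415L05Rik followed a like course, with 3.12 FPKM with compound 13, 2.38 and 3.17 FPKM in the LPS model, and 7.45 and 6.43 FPKM in the control. AI504432 had 1.19 FPKM with compound 13, 0.985 and 1.31 FPKM in the LPS model, and 3.60 and 3.46 FPKM in the control. The others were 2310040G24Rik (−1.20), Gm5086 (−1.14), Gm42595 (−0.999), C130083M11Rik (−0.90), Neat1 and AC153899.1 (−0.64).

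A further 6 members were lower only in the test on reads, being under the filter of the main test. They were Gm44751, Gm29154, Gm26826, Gm7967, 6330403L08Rik and Gm45495. Gm45495 had 0 reads in all 3 libraries given LPS, against 5 and 13 reads in the control. Gm26826 had 1 read with compound 13 and 0 and 0 reads in the LPS model, against 13 and 6 reads in the control. Against a floor of 3 reads Gm26826 was 6.16-fold lower in the LPS model, and the exact interval of the ratio reaches up to 0.220. 6330403L08Rik, antisense to Pdgfa, a platelet-derived growth factor, had 34 reads with compound 13, 27 and 36 reads in the LPS model, and 95 and 80 reads in the control.

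The lower members are next described by position, in a grouping chosen after the values were seen and therefore given without a test. In the GENCODE M21 annotation, which has the coordinates of all 74 members, 7 members begin within 5 kb after the end of a coding gene on the same strand. Of these 7, 6 were below the control in both LPS model libraries and 1 above, while of the other 67 members 9 were below and 58 above. The 6 lower genes follow Ddx51 (Gm42595, 0.895 kb), Ctsc (Gm44751, 0.589 kb), Kcna3 (AI504432, 1.43 kb), Hint3 (AC153899.1, 1.51 kb), Smim20 (Gm45495, 3.27 kb) and Frmd8 (Neat1, 4.22 kb). None of these 6 coding genes has a row in the table used here. The 1 higher gene, Gm44659, begins 4.30 kb after Ceacam19, which is listed and was also higher.

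The number of exon blocks is given in the same way, as a grouping chosen after the values were seen. Of the 11 members with a single exon block, 7 were below the control in both LPS model libraries and 4 above, while of the 63 with several blocks 8 were below and 55 above. The groupings share genes, since 5 of these 7 lower members are among the 6 above. Outside the 7 members that follow a coding gene, 2 single-block members were below and 4 above. Among listed protein-coding genes with a single block, 6 of 34 were below and 28 above. In RefSeq, 5 members that GENCODE places outside any coding gene fall inside the span of one, namely Gm42595 in Ddx51, Gm44751 in Ctsc, AC153899.1 in Hint3, Gm44659 in Ceacam16 and Gm45847 in Tnrc6a. Whether reads of these members come from longer ends of the coding transcripts was not tested. Only 1 of these 5, Gm45847 (17 reads with compound 13, 18 and 22 reads in the LPS model, and 3 and 5 reads in the control), is not among the 7 above.

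The antisense genes were set against the genes they overlap. Of the 18, 15 overlap an annotated coding gene on the other strand, and that gene is listed for 6 of them. In 13 members, lincRNA genes included, exons share bases with coding exons of the other strand, over 1.06% to 26.4% of the member's exon length. The library kit was strand-specific, but the sources used here do not say whether the counting used strand, so reads of the 2 strands cannot be told apart at these bases. Exons of 0 members overlap coding exons of their own strand.

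Within 100 kb, 28 members had a listed protein-coding gene. Paired with the nearest one only, they met 25 different genes, and in 22 of the 28 pairs the mean difference from the control had the same sign with LPS. All 22 were pairs in which both means were higher, in 3 the member was higher and its neighbour lower, and in 3 the member was lower and its neighbour higher. The sign alone was counted, and some neighbours in the 22 overlapped the control. Lyzl4 had 8 and 19 reads in the LPS model against 12 and 7 reads in the control, and Bco2 was not called (adjusted p = 0.206 from limma). Of all listed coding genes 77.9% were higher with LPS and of all members 79.7%, and the 78.6% of pairs alike in direction was not tested against what these shares alone would give. Pairs share a coding gene in 3 cases (Hmga2, Lyzl4 and Ulk4) and are not independent. Within 10 kb all 9 pairs were higher together, and within 1 Mb 37 of 55 pairs were alike, 34 of them higher. After rescaling by the median of ratios 16 of the 28 pairs were alike. With every listed coding gene within 100 kb, and not only the nearest, there were 40 pairs with 37 genes, of which 33 were alike. The neighbours' own changes were taken as differences of mean log2(FPKM + 1), with a limma p where they passed the filter.

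Where the coding gene on the other strand has no row in the table, the antisense genes could only be described alone. Gm13748, against the transcription factor gene Klf7, had 20 reads with compound 13, 23 and 31 reads in the LPS model, and 6 and 5 reads in the control. Gm28809, against the tetraspanin gene Cd9, had 5.66 FPKM with compound 13, 6.79 and 6.34 FPKM in the LPS model, and 1.95 and 3.26 FPKM in the control. Both were higher with LPS, by 1.51 and 1.09 on the log2 scale. Gm17034, against the hexokinase gene Hk2, was under the filter, with 16 reads with compound 13, 25 and 26 reads in the LPS model, and 7 and 9 reads in the control. Plet1os, against Plet1, had 17 reads with compound 13, 19 and 20 reads in the LPS model, and 1 and 0 reads in the control. Gm26902, a lincRNA against Ch25h, the cholesterol 25-hydroxylase gene, had 38 reads with compound 13, 35 and 32 reads in the LPS model, and 6 and 3 reads in the control. In each of these 5 genes both LPS model libraries lay above both control libraries. The opposite held for 6330403L08Rik, against Pdgfa, and Gm26826, against Foxj2, both given above.

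The 8 overlapping pairs joined genes of quite different kinds. Hmga2, a chromatin protein, contains both 1700006J14Rik and 9230105E05Rik on its other strand. It had 128 FPKM with compound 13, 128 and 129 FPKM in the LPS model, and 52.6 and 48.8 FPKM in the control. 1700006J14Rik had 1.25 FPKM with compound 13, 2.11 and 1.99 FPKM in the LPS model, and 0.670 and 0.649 FPKM in the control, a rise by 0.88 ± 0.08 on the log2 scale (adjusted p = 0.00016 from limma). Its exons share 4.85% of their bases with exons of Hmga2, and those of 9230105E05Rik share none. With compound 13 Hmga2 stood inside the LPS model pair, while 1700006J14Rik stood below it, at −0.44 against the LPS model (adjusted p = 0.0654 from limma).

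Gm16712, a lincRNA by class, overlaps Ebi3, a subunit of the cytokine interleukin 27, over the largest share of its exons, 26.4%, which it shares with Ebi3 and Yju2. Gm16712 had 2.20 FPKM with compound 13, 2.43 and 2.78 FPKM in the LPS model, and 0.616 and 0.805 FPKM in the control. Ebi3 had 25.3 FPKM with compound 13, 24.8 and 23.3 FPKM in the LPS model, and 5.11 and 5.35 FPKM in the control. Both were therefore higher with LPS, by 1.07 and 2.01 on the log2 scale. E230032D23Rik runs against Tnfrsf23 and Tnfrsf26, of the TNF receptor family, Tnfsf13os against the TNF family cytokine Tnfsf12, and Gm42835 against the adaptor Bcar3. Tnfsf13os also runs against Tnfsf13 and Tnfsfm13, which are not listed and with which its exons share 22.8% of their bases. For E230032D23Rik, Tnfsf13os and Gm42835 the log2 fold changes with LPS were 0.69, 0.80 and 0.77, and none of the 3 was called after rescaling. Gm42835 also lost its call without LPS model replicate 1 (adjusted p = 0.129 from limma) and without control replicate 2 (adjusted p = 0.0628 from limma). Gm26581 lies on the same strand inside the gene bodies of Raet1e and H60b, ligands of the receptor NKG2D, and the part of their unspliced transcripts in its value was not tested. It had 3.95 FPKM with compound 13, 3.83 and 4.02 FPKM in the LPS model, and 2.06 and 1.71 FPKM in the control, a difference of 0.77 that turned to −0.11 (not called) after rescaling. AL589871.1, against the serpin gene Serpinb9b, was under the filter, with 5 reads with compound 13, 14 and 10 reads in the LPS model, and 2 and 0 reads in the control.

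**Figure D3:**
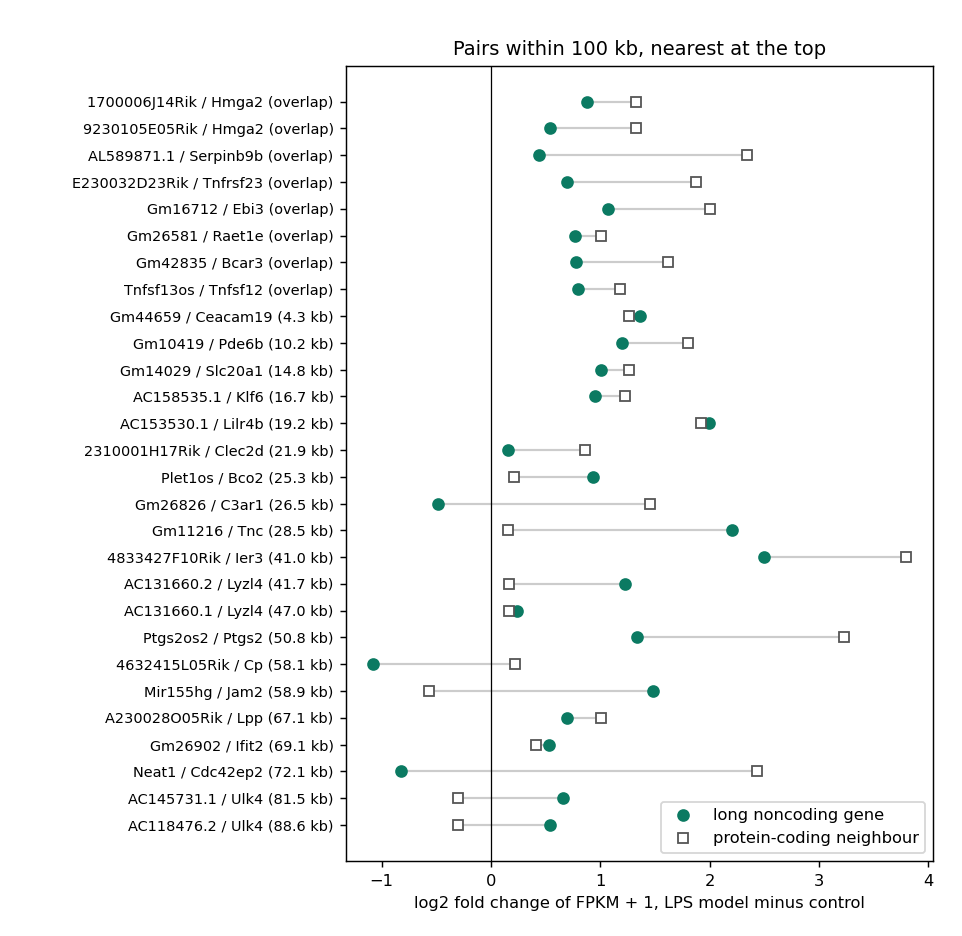
Log2 fold change of FPKM + 1 between LPS model and control (horizontal axis) for 28 members (circles) and their nearest listed protein-coding gene within 100 kb (squares), 1 pair a line with the gap between gene bodies. Without rescaling, the 9 pairs closest together lie right of 0 with both symbols, and lines that cross 0 begin at Gm26826 and C3ar1, 26.5 kb apart.

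Farther pairs included several LPS response genes. Ptgs2os2 lies 50.8 kb from Ptgs2, which encodes the cyclooxygenase COX-2, and the pair is convergent. Ptgs2 had 137 FPKM with compound 13, 158 and 161 FPKM in the LPS model, and 16.1 and 16.3 FPKM in the control, and its rise by 3.23 ± 0.04 on the log2 scale was larger than the 1.33 of Ptgs2os2. 4833427F10Rik lies 41.0 kb before Ier3, an immediate early gene, on the same strand. Ier3 had 344 FPKM with compound 13, 365 and 353 FPKM in the LPS model, and 23.1 and 26.7 FPKM in the control, and both genes of this pair were among those raised most, by 3.80 for Ier3 and 2.50 for 4833427F10Rik. A more distant gene, Nrm, which encodes nurim and lies 80.6 kb from 4833427F10Rik, was lower, at −1.36. AC153530.1 lies 19.2 kb before Lilr4b, a receptor of the immunoglobulin family, and rose by 1.996, beside 1.92 for Lilr4b. With compound 13 their values parted, since AC153530.1 stood at 3.08 FPKM, below the 5.33 and 4.90 FPKM of the LPS model, and Lilr4b at 125 FPKM, above the 100.3 and 115 FPKM of the LPS model. Neither difference passed the test (adjusted p = 0.201 and 0.376 from limma).

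AC158535.1 begins 16.7 kb after the gene of the transcription factor Klf6, on the same strand. Klf6 had 35.2 FPKM with compound 13, 39.7 and 39.3 FPKM in the LPS model, and 17.2 and 15.6 FPKM in the control. AC158535.1 had 9.78 FPKM with compound 13, 11.1 and 10.1 FPKM in the LPS model, and 4.55 and 5.47 FPKM in the control, so that both were higher with LPS. Slc20a1, a phosphate transporter, is divergent from Gm14029 with 14.8 kb between them. Gm14029 had 29 reads with compound 13, 47 and 48 reads in the LPS model, and 12 and 14 reads in the control, while Slc20a1 rose by 1.26 on the log2 scale. Gm10419 ends 10.2 kb before Pde6b, a phosphodiesterase gene known from photoreceptors, and had 331 reads with compound 13, 288 and 324 reads in the LPS model, and 72 reads in each control library. Pde6b stood at 2.97 FPKM with compound 13, at 3.39 and 3.83 FPKM in the LPS model, and at 0.444 and 0.209 FPKM in the control. In these 3 pairs both genes were higher with LPS, by 0.95 to 1.80 on the log2 scale.

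Pairs in opposite directions included the role genes Mir155hg and Neat1. Jam2, a junction adhesion molecule 58.9 kb after Mir155hg, had 1.17 FPKM with compound 13, 1.41 and 1.45 FPKM in the LPS model, and 2.62 and 2.57 FPKM in the control, and fell by 0.57 on the log2 scale. Cdc42ep2, an effector of the GTPase Cdc42 and 72.1 kb before Neat1, had 6.38 FPKM with compound 13, 5.94 and 6.97 FPKM in the LPS model, and 0.405 and 0.353 FPKM in the control. Gm26826, which was lower with LPS, lies 26.5 kb after C3ar1, the receptor of complement C3a, which was higher by 1.46. Gm11216 and Tnc, the matrix protein tenascin C, are divergent genes 28.5 kb apart and were not such a pair, since both were higher with LPS. Tnc stood below 0.2 FPKM in every library, with 2 reads with compound 13, 19 and 21 reads in the LPS model, and 4 and 6 reads in the control.

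**Figure D4:**
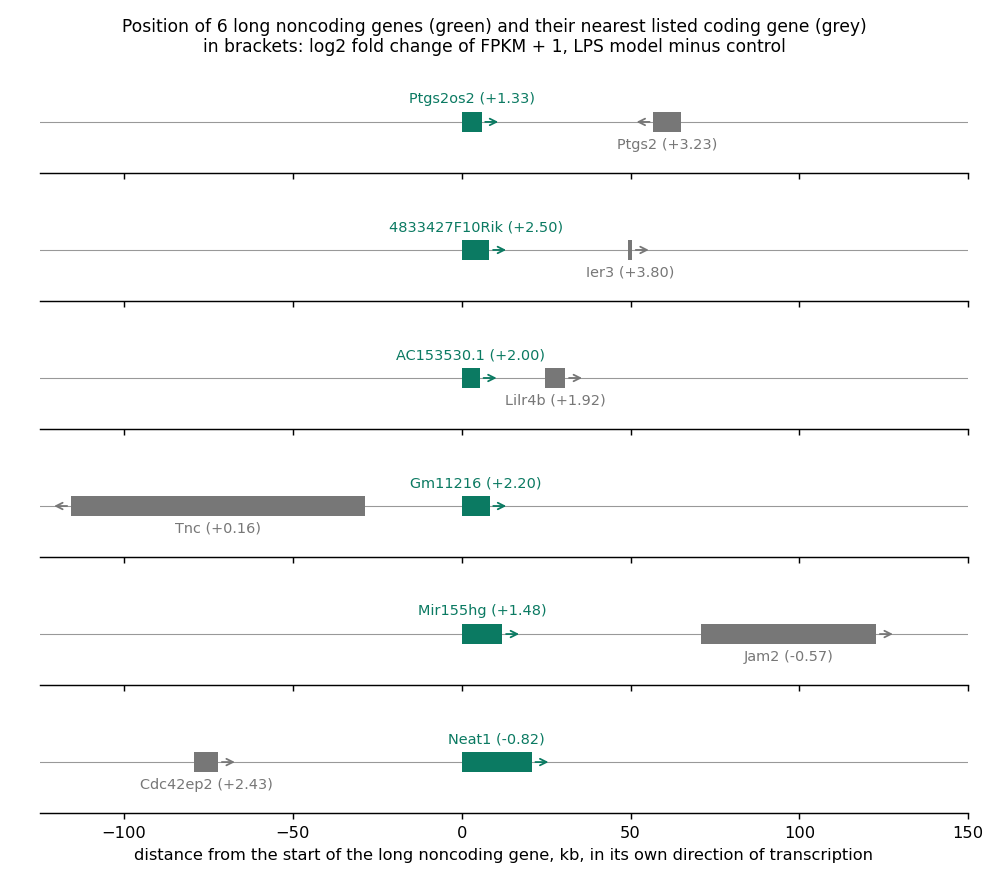
Gene bodies of 6 members (green) and their nearest listed coding gene (grey) by distance in kb from the start of the member in its own direction, with arrows for the direction of transcription and the log2 fold change with LPS in brackets. Ptgs2 points towards Ptgs2os2, Ier3 and Lilr4b follow their member on the same strand, and Tnc points away from Gm11216.

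Members also lay near each other. On chromosome 9, AC118476.6, AC118476.2 and AC145731.1 lie within 39.5 kb, and all were above the control in both LPS model libraries. AC118476.6 had 14 reads with compound 13, 22 and 31 reads in the LPS model, and 2 and 1 reads in the control. AC131660.2 and AC131660.1, on opposite strands of chromosome 9 within 20.5 kb, had 28 or fewer reads in any library and were higher with LPS as well.

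With compound 13, few members differed from the LPS model. By limma 1 of the 51 tested was higher and 2 were lower, beside 0.38% higher and 7.22% lower (7.6% in all) of the 1053 genes. The library with compound 13 is single and is assumed to vary like the others. Gm11216 was lower, with 16 reads with compound 13 against 33 and 27 reads in the LPS model, at −0.76 ± 0.12 on the log2 scale (SE, adjusted p = 0.035 from limma). AC134528.2 was lower, with 87 reads against 128 and 129 reads in the LPS model, at −0.48 ± 0.09 (adjusted p = 0.0466 from limma). Gm14275 was higher, with 81 reads against 57 and 54 reads in the LPS model, at 0.43 ± 0.08 (adjusted p = 0.0489 from limma). No role is given here for these 3 genes. With either LPS model replicate left out, 1 library stands against 1 and 0 members were called (10 without replicate 1 and 11 without replicate 2 at an unadjusted p under 0.05 in limma). The differences were then −0.65 and −0.86 for Gm11216, −0.50 and −0.46 for AC134528.2 and 0.45 and 0.42 for Gm14275. Their direction could not change, since in these 3 genes the same compound 13 library lay outside both LPS model libraries. Shares of all genes called with a replicate left out are not given here. With either control replicate left out, 8 members were called. Those 8 were the 3 genes above with Gm43351, Gm44659, AC153530.1, Gm28187 and Neat1.

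The test on reads named different genes. Limma-voom called Neat1 higher and Gm28187 lower, 0 of them shared with limma, beside 0.941% higher and 19.4% lower (20.3% in all) of its 1487 genes. Neat1 had 3288 reads with compound 13 against 2289 and 2404 reads in the LPS model, at 0.42 on the log2 scale (adjusted p = 0.0182 from limma-voom) and at 0.37 ± 0.08 in the main test (adjusted p = 0.0713 from limma). Its value with compound 13 lay between the LPS model and control libraries. Gm28187 had 387 reads with compound 13 against 507 and 503 reads in the LPS model, and 234 and 204 reads in the control. Its adjusted p was 0.0428 from limma-voom and 0.0798 from limma.

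The library with compound 13 lay below both LPS model libraries in 44 members, above both in 10 and between them in 20, beside 66.1% below and 16.9% above in the whole table. In 47 members it lay outside the LPS model pair on the side of the control, beside 64.3% of all listed genes. These shares were near those of the table. The median log2 difference to the LPS model was −0.10 over the tested members and −0.08 over all genes tested. Ptgs2os2 (0.05), Mir155hg (−0.29) and F630028O10Rik (−0.07) did not pass the test, with adjusted p of 0.796, 0.17 and 0.794 from limma.

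**Figure D5:**
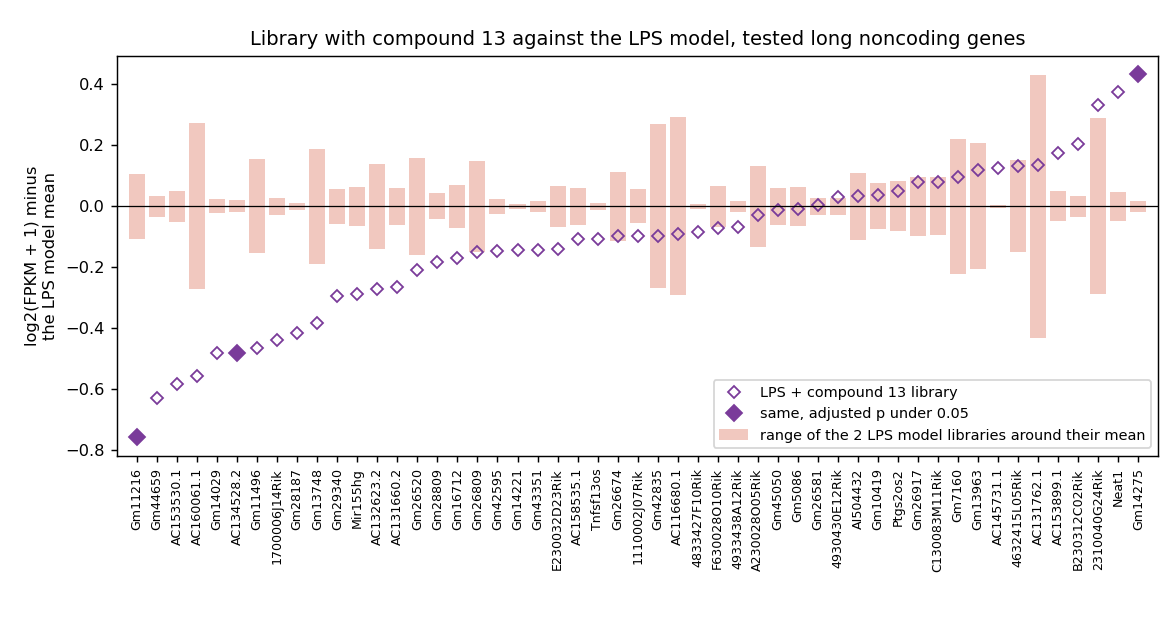
Level in the library with compound 13 minus the mean of the LPS model, in log2(FPKM + 1) (vertical axis), for the 51 tested members in order. Diamonds are the single library, filled for the 3 genes with an adjusted p under 0.05, and bars are the range of the 2 LPS model libraries around their mean. Gm11216 is at −0.76 and Gm14275 at 0.43, and most open diamonds lie slightly below 0.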

How the data were processed

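RNA of RAW264.7 cells was sequenced from a strand-specific total RNA kit, 1 library with LPS and compound 13, 2 of the LPS model and 2 of the control, grouped by the labels. According to the submitters' processing notes, HISAT2 2.1.0 was used on build mm10 beside SAMtools 1.4, Trimmomatic 0.32 and DESeq2, in roles not stated. For the counter, the annotation release, the use of strand and the choice of the 1489 listed genes, the entry is: not given in the sources used here. The values deposited by the authors are log2 FPKM for each library, with an exact 0 where no read was counted (562 values, 23 of the 370 of members). The table's own annotation columns were used for class and position. Neighbours and exon overlaps came from the table and from GENCODE M21, in which 1487 identifiers matched and 1336 had the same coordinates.

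FPKM times exon length gave whole reads at 1 depth in each library for 97.2% to 99.4% of low values (tolerance 0.1 read, at most 50.8% at any other depth). The main test was limma 3.58.1 (R 4.3.3) with a mean-variance trend on log2(FPKM + 1) over 5 libraries in 3 groups, with 2 residual degrees of freedom and 2.97 from the prior. Fold changes on this scale understate the change of low genes. P-values were adjusted by the Benjamini-Hochberg method over the 1053 genes tested. Limma-voom took genes with at least 10 recovered reads. Intervals of read ratios are exact 95% intervals and, like the floor of 3 reads over a group, cover counting error only. Python 3.11.15 with pandas 2.3.3, scipy 1.17.1 and matplotlib 3.10.9 was used for the rest. Only the main limma test and limma-voom were also run on simulated data, with as many genes raised as lowered, unlike the listed genes. The alternative settings and the exact intervals were not, and no result here rests on that run.

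The members and lists were chosen with earlier results of these data known. Named were members of the role list, the called members of a mean of at least 1 FPKM that changed most with LPS (up to 10 upward and 10 downward), members called with compound 13, the 5 most abundant members, those within 10 kb of a listed coding gene, and those with reads in the LPS model alone (0 found). Other genes were named after their values were seen. A list of 18 imprinted or developmental noncoding genes had 0 members. The compound 13 and control comparisons share the LPS model libraries. The alternatives were a pseudocount of 0.1, no filter, rescaling by the median of ratios, a replicate block, fits on the compared groups alone, no trend, limma-voom, a minimum log2 fold change of 1, other neighbour windows and leaving out each replicate.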

Additional observations from a re-analysis of the deposited data

How the results depend on the processing

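With LPS, 50 members were called in the main test and 50 with a pseudocount of 0.1, in the fit of the compared groups alone and without the trend, against 73 of 74 with no filter. The count was 28 when rescaled by the median of ratios (17 higher, 11 lower), 28 (23 higher, 5 lower) with a minimum absolute log2 fold change of 1, and 49 to 50 when 1 replicate was left out. Rescaling turned the values of Gm26917 (−0.18), 4930430E12Rik (−0.0067) and Gm26581 (−0.11) with LPS, and of F630028O10Rik (0.039) with compound 13, and ended the call of 12 other named results. The rescaling itself lowers the differences with LPS, since it is set so that the median listed gene does not change. What underlies the change of that median gene was not tested. With compound 13, 3 members were called in the main test, 0 with a pseudocount of 0.1 (9 at an unadjusted p under 0.05 in limma), 0 after rescaling (8 so), 1 with no filter (AC101882.1), 7 in the fit of the compared groups alone, 5 without the trend, 2 by limma-voom, 0 with a minimum log2 fold change of 1, and 0 to 8 when 1 replicate was left out. Of 28 neighbour pairs 22 were alike, 16 after rescaling and 20 to 22 with 1 replicate left out, against 9 of 9 within 10 kb and 37 of 55 within 1 Mb. The deviations of same-numbered LPS model and control libraries had a correlation of −0.0219 over 1053 genes. With 2 replicates a group this cannot decide whether the libraries were paired, which the sources do not state. With a replicate block 50 members were called with LPS and 1 with compound 13 (Gm11216), and Ptgs2os2 turned to −0.017 with compound 13, while it ranged from −0.033 to 0.13 with 1 replicate left out. Except for the main test and limma-voom, shares of all genes called under these settings are not given, so the counts are no trait of the members. AC101882.1, called with no filter, had only 4 reads with compound 13 against 9 and 8 reads in the LPS model. Depth limits the lowest members, since 23 of 74 stayed under the filter, and a single library with compound 13 leaves its spread unmeasured.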

Other observations

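The table also holds 38 noncoding genes of other classes (17 processed transcripts, 14 classed TEC, 4 from bidirectional promoters, 2 sense intronic and 1 sense overlapping). Of the 22 tested by limma, 11 were higher and 10 lower with LPS, beside 72.7% and 23.4% of all genes tested. Mir22hg, the host gene of miR-22, had 327 reads with compound 13, 277 and 311 reads in the LPS model, and 87 and 99 reads in the control, and was higher by 1.42 on the log2 scale. AC114645.5 had 102 reads with compound 13, 88 and 99 reads in the LPS model, and 10 and 9 reads in the control. Gm37416 was lower with LPS, with 97 reads with compound 13, 82 and 71 reads in the LPS model, and 191 and 192 reads in the control. Gm43197 was lower with compound 13, at 319 reads against 479 and 510 reads in the LPS model, a difference of −0.63 on the log2 scale (adjusted p = 0.0308 from limma). These genes were named after their values were seen.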
